A study of Saccharomyces cerevisiae with 18 samples.

Results

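The 10 genes described here encode cyclins of budding yeast that are transcribed in waves through the cell cycle: CLN1 (YMR199W), CLN2 (YPL256C), PCL1 (YNL289W), PCL2 (YDL127W), CLB5 (YPR120C), CLB6 (YGR109C), CLB3 (YDL155W), CLB4 (YLR210W), CLB1 (YGR108W) and CLB2 (YPR119W). They were picked by identifier from the 7036 features of the count files, and CLN3 was left out of the set. Poly(A) RNA of asynchronous cultures was sequenced in 18 libraries, 6 for each of 3 Saccharomyces cerevisiae strains in the S288C background. K467N made Nup60, a nuclear pore basket protein, with asparagine at lysine 467 as a stand-in for acetylated lysine. K467R had arginine there as a stand-in for lysine that cannot be acetylated, and WT had the unchanged lysine. In every strain, controls included, Nup60 was fused to GFP; the marker gene next to it was HIS3 of Saccharomyces kluyveri in K467N and WT but HIS3MX6 in K467R, so the marker and the substitution cannot be told apart in comparisons with K467R. Cultures were kept at 25 °C on yeast extract and peptone with 2% glucose and adenine until harvest at an optical density of 0.6 to 0.7. The labels call the 6 libraries replicates without tying them to independent clones or cultures, so p-values measure only the spread between these libraries, which may be technical.

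Cyclins switch on cyclin-dependent kinases and direct them to their substrates. Cdc28 is the kinase that carries a budding yeast cell through the cycle, and it works in turn with Cln cyclins in late G1, with Clb5 and Clb6 in S phase and with the other Clb cyclins on the way into mitosis. Pcl1 and Pcl2 instead bind a second kinase, Pho85, and act beside the Cln cyclins in G1. The late G1 wave is transcribed under SBF and MBF, factors that read the promoter elements known as SCB and MCB, and the CLB1 and CLB2 wave under Mcm1, Fkh2 and Ndd1. The level of such a transcript in an asynchronous culture averages over cells in all phases, so fewer cells in a phase and less RNA per cell in that phase cannot be told apart.

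The promoter letters show which of these elements lie near each gene. They were read by gene identifier from the RefSeq R64 reference of S288C; the build behind the counts is not given in the sources used here, and positions are therefore distances from the start codon. Within 600 bases before the start codon, on either strand, CNCGAAA (an SCB-like motif) was found in 24.7% of 6005 promoters and in 5 of the 10 cyclin promoters, and at least 2 copies in 3.48% of all promoters. CLN1, CLN2 and PCL2 each had 2 copies, PCL1 had 4 and CLB4 had 1. ACGCGT (the MCB core) was found in 6.34% of promoters and at least 2 copies in 0.683%; among the cyclin genes CLB6 had 2. GTAAACA (a forkhead motif) was found in 12.0% of promoters, and once each in CLB6 and CLB4. None of these matches in the cyclin promoters shares a base with another. A match is a description and not a shown binding site, and promoters without one are only without these letters in this window. Not every match is shown: the SCB-like match of CLB4, further ones of CLN1, PCL1 and PCL2, and the forkhead matches are left out. The windows below are examples from the SCB-like matches of the G1 cyclin genes and the MCB matches of CLB6. Each is read 5′ to 3′ on the strand of its gene, with the motif in capitals and the distance of its first base before the start codon.
CLN2 SCB-like, 581 bases before the start (chromosome XVI, minus strand): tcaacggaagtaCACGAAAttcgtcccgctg
CLN2 SCB-like, 538 bases before the start: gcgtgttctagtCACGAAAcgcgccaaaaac
CLN1 SCB-like, 452 bases before the start (chromosome XIII, plus strand): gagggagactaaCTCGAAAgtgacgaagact
PCL1 SCB-like, 303 bases before the start (chromosome XIV, plus strand): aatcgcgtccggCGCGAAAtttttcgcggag
PCL2 SCB-like, 370 bases before the start (chromosome IV, plus strand): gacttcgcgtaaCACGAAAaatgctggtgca
CLB6 MCB, 403 bases before the start (chromosome VII, minus strand): aatagcagttttACGCGTaccacaaaattt
CLB6 MCB, 377 bases before the start: atttaacgaccaACGCGTattcttcgcgtt

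Gene counts per library numbered 14061184 to 17111951 in K467N, 12910660 to 15492932 in K467R and 12395725 to 19093010 in WT. NUP60 itself was at 82.7 to 90.9 CPM in K467N, 84.8 to 94.4 CPM in K467R and 77.0 to 93.1 CPM in WT; CPM scales a gene's count to the TMM-adjusted size of its library. It did not pass the test in any of the 3 comparisons, and a count of the whole gene does not check a point mutation. Reads on HIS3 (YOR202W) separated K467R from the other strains, and summed to 7394 in K467N, 1 in K467R and 7468 in WT. The 6 genes specific to a cells, among them the pheromone receptor gene STE2 (326 to 544 CPM), were present in every library. Of the genes specific to alpha cells, STE3 reached at most 1.67 CPM and both alpha-factor genes had at most 5 counts in any library, while SAG1 lay between 22.4 and 40.5 CPM. All 10 cyclin genes had enough counts to be tested, and none of their 50-base coding runs occurred elsewhere in the R64 genome.

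The cyclin transcripts spanned about an order of magnitude per length, and the order of their means was the same in K467N, K467R and WT. Per kilobase of coding length, CLN2 was the highest member, at 95.7 CPM per kb in K467N, 92.5 in K467R and 94.5 in WT. PCL1 came next at 79.8 CPM per kb in K467N, 89.0 in K467R and 77.9 in WT. CLN1 followed at 68.8 in K467N, 62.5 in K467R and 65.7 CPM per kb in WT. Below these 3 G1 transcripts lay CLB3, CLB2 and CLB1 in that order, at means of 58.6, 49.1 and 43.3 CPM per kb over the 18 libraries. PCL2, CLB5 and CLB4 came after them at 34.5, 30.8 and 25.8 CPM per kb. CLB6 was the lowest at 9.56 CPM per kb, and its highest library stayed below the lowest library of CLB4, the next member up.

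**Figure D1:**
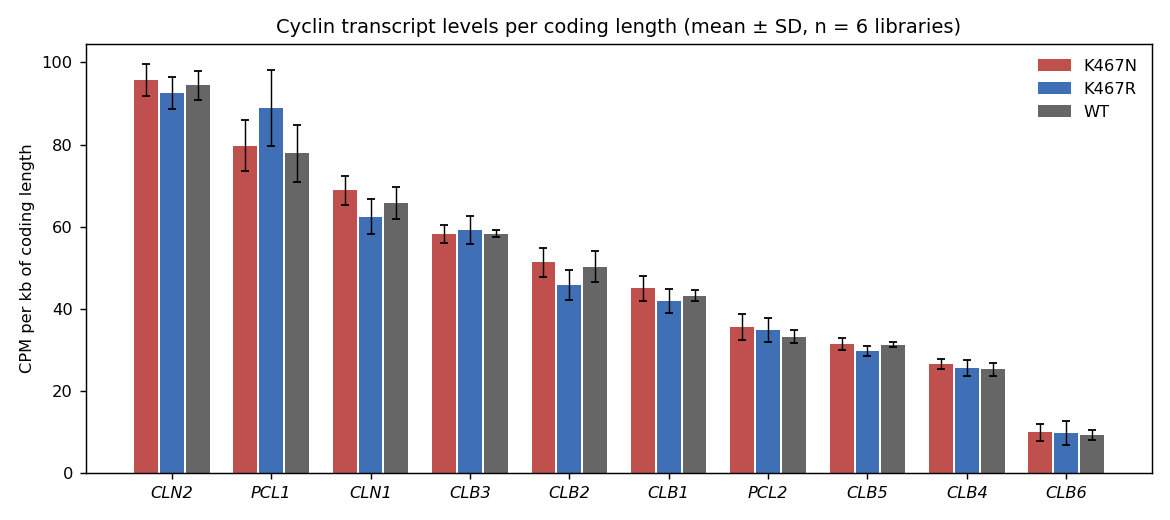
Mean level of each cyclin transcript in CPM per kb of coding length (vertical axis, from 0), with the SD of 6 libraries, for K467N, K467R and WT. CLN2 stands highest at 92.5 to 95.7 and CLB6 lowest at 9.16 to 9.85 in the 3 strains.

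Not all neighbours in this order were separate. CLN2 lay above PCL1 in all 6 libraries of K467N and of WT with no overlap of their ranges, whereas in K467R the ranges overlapped and CLN2 was higher in 4 of 6 libraries. PCL1 and CLN1 overlapped in K467N and in WT, with PCL1 higher in 5 of 6 libraries of each, and did not overlap in K467R. CLB2 and CLB1 overlapped in both mutants and not in WT, although CLB2 was higher in every library. CLN1 overlapped with CLB3, and CLB1 with PCL2, in K467R and in neither other strain. PCL2 and CLB5 overlapped in all 3 strains. CLB3 lay above CLB2 without overlap in each strain, and CLB5 lay above CLB4 without overlap in each strain.

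Within each of the paralog pairs 1 member was higher per length in every library. The ratio of CLN2 to CLN1 was 1.39 as a geometric mean in K467N, 1.48 in K467R and 1.44 in WT. PCL1 was at 2.25 times the level of PCL2 in K467N, 2.55 times in K467R and 2.34 times in WT. CLB5 was at 3.25 times the level of CLB6, the other S phase cyclin, in K467N, 3.18 times in K467R and 3.44 times in WT, with single libraries from 2.11 to 4.90. CLB3 was at 2.09 to 2.37 times the level of CLB4, both known for their part in spindle formation, in single libraries of K467N, 2.04 to 2.91 times in K467R and 2.16 to 2.58 times in WT. CLB2, the main mitotic cyclin, was at 1.14 times the level of CLB1 in K467N, 1.09 times in K467R and 1.16 times in WT. For each pair the ratios of the 3 strains overlapped between libraries. Summed per length, Cln transcripts made up 32.8 ± 1.31% of the 10 members in K467N, 31.6 ± 0.981% in K467R and 32.8 ± 0.970% in WT (SD, n = 6 each). The 6 B-type cyclins together made up 44.3 ± 1.02% in K467N, 43.1 ± 1.24% in K467R and 44.5 ± 1.17% in WT. Within these, CLB1 and CLB2 made up 19.2 ± 1.02% in K467N, 17.8 ± 1.01% in K467R and 19.1 ± 0.813% in WT, and CLB3 and CLB4 16.9 ± 0.483% in K467N, 17.3 ± 0.559% in K467R and 17.1 ± 0.275% in WT. CLB5 and CLB6 made up 8.23 ± 0.354% in K467N, 8.03 ± 0.735% in K467R and 8.27 ± 0.308% in WT. The Pho85 cyclins made up 23.0 ± 1.77% in K467N, 25.3 ± 1.91% in K467R and 22.7 ± 1.59% in WT. The libraries of the 3 strains overlapped in each of these shares, and the differences between strains were not tested.

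The acetyl mimic was compared with WT to ask whether cyclin transcript levels differed. No cyclin gene passed the test: 0 of 10 were called higher and 0 lower, where 0.0707% of all 5660 tested genes were called (edgeR's quasi-likelihood test, Benjamini-Hochberg adjusted p under 0.05). None had an unadjusted p under 0.05, and the adjusted p was 0.999 or more for each member. Log2 fold changes ran from -0.0011 for CLB3 to 0.11 for CLB6, with 9 of 10 above 0 and a median of 0.046, beside a median of 0.000298 over all genes, of which 50.2% were above 0. The count above 0 was 8 to 10 over the alternatives. The value of CLB6 was 0.041 without K467N 4, 0.19 without K467N 6 and 0.016 with 2 surrogate variables in the fit.

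CLN1, which acts at Start, had 106, 113 and 123 CPM as its lowest, median and highest library in K467N, against 101, 108 and 118 CPM in WT. Its ranges overlapped, with 1 K467N library above all WT libraries, and its log2 fold change was 0.07 ± 0.05 (standard error). CLB2 had 69.0, 77.7 and 81.4 CPM in K467N, against 68.2, 73.0 and 81.8 CPM in WT, and all 6 K467N libraries lay within the WT range. Its log2 fold change was 0.03 ± 0.06, and 0.0069 to 0.059 with 1 library left out. The 95% intervals bound what these libraries leave room for. For CLN2 the interval of K467N over WT was 0.958 to 1.07-fold, for CLB5 0.947 to 1.07-fold and for CLB2 0.935 to 1.11-fold. CLB6 was the least certain, at 0.851 to 1.36-fold.

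**Figure D2:**
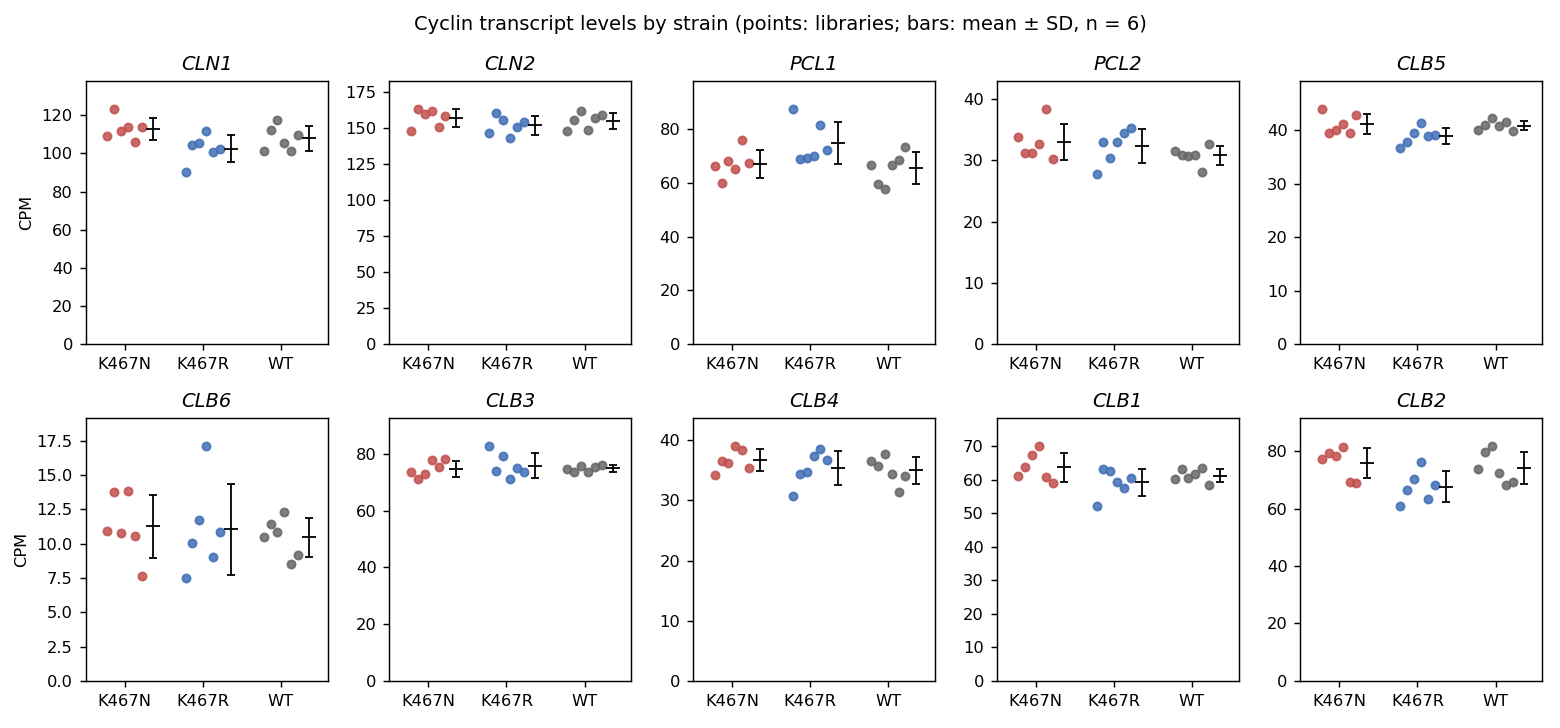
Level of each cyclin transcript in CPM (vertical axes, from 0) in every library, 6 per strain as points, with the mean ± SD as bars, for K467N, K467R and WT. In every panel the points of the strains overlap; the CLB6 points spread widest relative to their level, from 7.52 to 17.1 CPM.

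The deacetyl mimic was compared with WT in the same fit, with the same WT libraries. No cyclin gene passed here either, with 0 of 10 called higher and 0 lower beside 0.0707% of all genes called. PCL1 and CLB2 had unadjusted p-values under 0.05, and 5.67% of all tested genes had one in this comparison. The adjusted p ranged from 0.747 to 0.924 over the members (edgeR). The median log2 fold change of the 10 was -0.0065, beside -0.00652 over all genes.

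PCL1, the G1 partner of Pho85, had 68.8, 70.9 and 87.3 CPM as its lowest, median and highest library in K467R, against 57.5, 66.7 and 73.4 CPM in WT. All 6 K467R libraries lay above the WT median, and 2 of them lay above every WT library. The log2 fold change was 0.19 ± 0.07, an interval of 1.03 to 1.26-fold, with an edgeR adjusted p of 0.747. It was 0.14 without K467R 1, the library with the highest PCL1, and 0.11 with 2 surrogate variables in the fit.

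CLB2, at the other end, had 60.8, 67.4 and 76.0 CPM in K467R, against 68.2, 73.0 and 81.8 CPM in WT. Of the K467R libraries 4 lay below every WT library and 1 lay above the WT median. The log2 fold change was -0.14 ± 0.06, an interval of 0.834 to 0.994-fold, with an edgeR adjusted p of 0.747, and it was -0.06 with 2 surrogate variables and -0.11 without K467R 1 and K467N 2. CLB5 had 36.8, 39.1 and 41.3 CPM in K467R, against 39.9, 40.8 and 42.2 CPM in WT, with 5 of 6 K467R libraries below every WT library. Its log2 fold change was -0.07 ± 0.04 (edgeR unadjusted p = 0.110, adjusted p = 0.747), and its WT libraries had a coefficient of variation of only 2.21%. The share of all genes with as many libraries outside the WT range was not counted. The other members had log2 fold changes from -0.07 in CLN1 to 0.08 in CLB6. CLN1 was at -0.039 without K467R 1 and -0.018 with 2 surrogate variables, and CLB6 at 0.17 without K467R 1, -0.090 without K467R 4 and 0.24 with 2 surrogate variables.

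Between the mutants, K467N was set over K467R. No cyclin gene passed, with 0 of 10 called in either direction beside 0.0177% of all genes. CLN1, CLB2 and PCL1 had unadjusted p-values under 0.05, as did 11.2% of all tested genes, and the smallest adjusted p of a member was 0.408 (edgeR). CLB2 had a log2 fold change of 0.17 ± 0.06, with 69.0, 77.7 and 81.4 CPM in K467N against 60.8, 67.4 and 76.0 CPM in K467R. All 6 K467N libraries lay above the K467R median and 4 above every K467R library. CLN1 had 106, 113 and 123 CPM in K467N against 90.5, 103 and 112 CPM in K467R, a log2 fold change of 0.14 ± 0.05, with all 6 K467N libraries above the K467R median and 3 above every K467R library. PCL1 had 59.9, 66.6 and 75.7 CPM in K467N against 68.8, 70.9 and 87.3 CPM in K467R. It lay the other way at -0.16 ± 0.07, with 5 of 6 K467N libraries below every K467R library. With 2 surrogate variables in the fit the log2 fold changes were -0.035 for PCL1, 0.064 for CLB2 and 0.064 for CLN1. Without K467R 1 and K467N 2 they were -0.077 for PCL1, 0.12 for CLB2 and 0.080 for CLN1. These differences share libraries with the comparisons to WT and are not separate evidence of them.

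**Figure D3:**
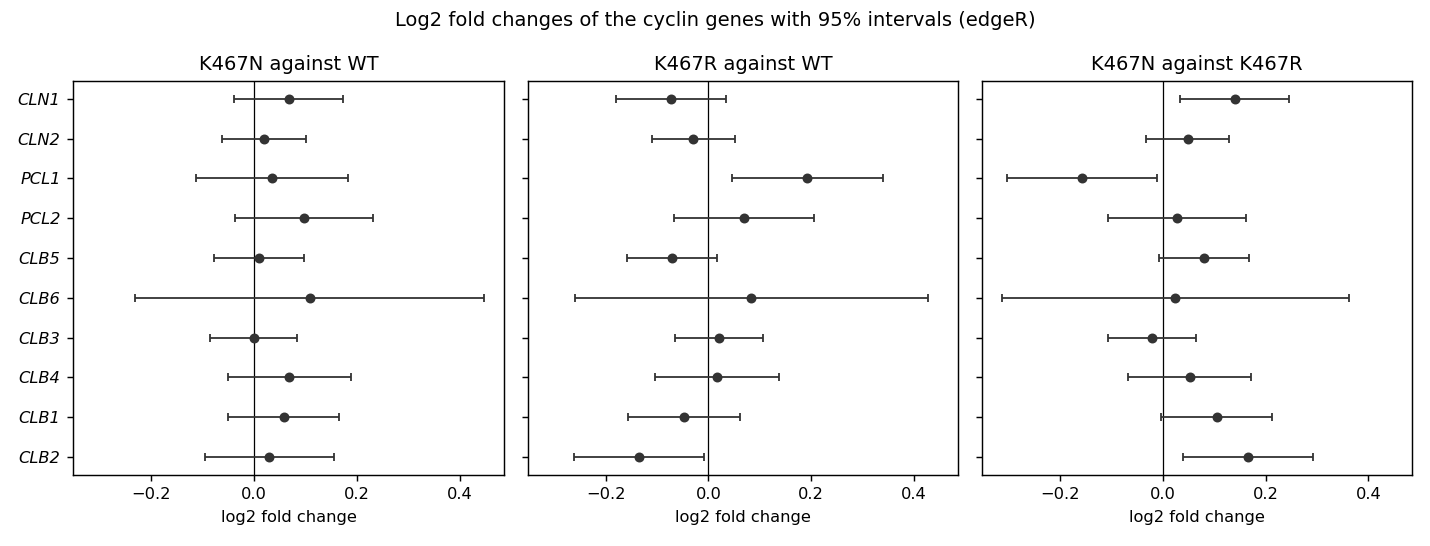
Log2 fold change (horizontal axes) of each cyclin gene (rows) with its 95% interval in edgeR, for K467N against WT, K467R against WT and K467N against K467R. Before adjustment the intervals leave 0 out for PCL1 and CLB2 in both comparisons with K467R and for CLN1 between the mutants, and the CLB6 intervals are the widest.

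Other genes of the cell cycle were read in the same fits, as lists set by known function. Of all 5660 tested genes 0.0707% were called in each comparison with WT and 0.0177% between the mutants. With shares so small, 0 called in a list this short says little about its genes. Of the 12 regulators of Start, among them the G1 cyclin gene CLN3 and the repressor gene WHI5, 0 were called in any comparison. WHI5 had the smallest p in K467N against WT (log2 fold change 0.19 ± 0.12), BCK2 in K467R against WT (-0.09 ± 0.05) and CLN3 in K467N against K467R (0.18 ± 0.07). None was called of the 7 genes of Cdc28 and its direct regulators, of the 10 of Pho85 and its other cyclins, or of the 22 of SCF and APC, the ubiquitin ligases that mark cyclins and their inhibitors for destruction, or of the 9 transcription factor genes of the G2/M and M/G1 waves. Among them CKS1, a small subunit of the Cdc28 complex, had 0.20 ± 0.09 in K467R against WT, and PCL5, a Pho85 cyclin, had -0.12 ± 0.05. The APC subunit gene DOC1 had -0.28 ± 0.12 in the same comparison, at 7.02 ± 1.21 CPM in K467R and 8.50 ± 1.39 CPM in WT (SD, n = 6 each).

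The transcripts that peak with each wave were likewise not called, 0 of 10 for G1/S, 0 of 9 for G2/M and 0 of 10 for M/G1 in each comparison. Their median log2 fold changes in K467N against WT were 0.030, 0.046 and 0.043, with 9 of 10, 6 of 9 and 8 of 10 members above 0. Over all tested genes the median there was 0.000298, and 50.2% were above 0. In K467R against WT the medians of the lists were 0.024, -0.034 and -0.038, with 7 of 10, 1 of 9 and 3 of 10 members above 0. Of all tested genes 46.9% were above 0 in that comparison and 0.0707% were called. These counts above 0 were not tested. SWI5, a transcription factor gene of the CLB2 wave, had -0.07 ± 0.05 in K467R against WT and 0.11 ± 0.05 in K467N against K467R. CDC21, the thymidylate synthase gene of the G1/S wave, had 0.13 ± 0.06 and -0.14 ± 0.06 in the same comparisons.

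The cyclin transcripts differed in how steady they were. The biological coefficient of variation that edgeR gave within strains was 4.17% for CLB5, 4.78% for CLB3 and 4.89% for CLN2, beside a median of 7.61% over all tested genes. These lay at the 0.707, 5.44 and 7.01 percentiles of all genes. CLB6 was at 18.2%, the 97.6 percentile, with 106 to 266 counts per library. Its libraries held 7.65 to 13.8 CPM in K467N, 7.52 to 17.1 CPM in K467R and 8.53 to 12.3 CPM in WT. CLB6 and CLB1 are neighbours that point towards each other in R64, as are CLB5 and CLB2, and the strand setting of the counting is not given, so some reads of one could be counted in the other. K467R 1 stood apart: of the 18 libraries it was the lowest for 7 members and the highest for PCL1 and CLB3.

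After each strain was centred on its own mean, 4 of the 45 cyclin pairs passed a permutation test of their correlation across the 18 libraries, adjusted over the 45 pairs. Correlations of this size were common among all genes. Among 5153 tested genes with a mean of at least 5 CPM, the middle 95% of r ran from -0.864 to 0.875 with CLB2, from -0.872 to 0.875 with PCL1, from -0.852 to 0.837 with CLN1 and from -0.819 to 0.832 with CLB6. The first principal component, the axis along which the 18 libraries differed most, held 37.4% of the variance. At its ends lay K467R 1 (-19.7) and K467N 2 (15.5). Centred within strains, r with this axis was 0.912 for CLB2, -0.900 for PCL1, 0.854 for CLN1 and 0.830 for CLB6, the genes of the 4 pairs. For the other members it lay between -0.507 (CLB3) and 0.605 (CLB1). Whether the pairs covary apart from this axis was not tested. CLB6 and CLB2 had the highest Pearson's r, 0.835 (permutation p = 4e-05, adjusted p = 0.0018), with Spearman's rho of 0.839 (permutation p = 0.00016, adjusted p = 0.00345). Within K467R, for example, both were lowest in K467R 1, at 7.52 CPM for CLB6 and 60.8 CPM for CLB2, and both were highest in K467R 4, at 17.1 and 76.0 CPM. Within the strains r was 0.824 in K467N, 0.988 in K467R and 0.637 in WT. Without the 2 libraries farthest from the median of CLB6 it was 0.769. In either direction, 3.98% of the 5153 genes were at least as strongly correlated with CLB6, and 11.2% with CLB2.

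PCL1 ran opposite to CLB2, with r = -0.821 (permutation p = 0.00015, adjusted p = 0.00337) and rho = -0.804 (permutation p = 0.00023, adjusted p = 0.00345). Without the 2 libraries farthest in PCL1 r was -0.757, and within the strains it was -0.676 in K467N, -0.815 in K467R and -0.951 in WT. Of all genes, 14.5% were at least as strongly correlated with PCL1 and 13.8% with CLB2. PCL1 also ran opposite to CLN1, with r = -0.802 (permutation p = 0.00034, adjusted p = 0.0051), rho = -0.814 (permutation p = 0.0002, adjusted p = 0.00345) and r = -0.741 without the 2 libraries farthest in CLN1. Within the strains it was -0.903 in K467N, -0.869 in K467R and -0.645 in WT, and 13.2% of all genes were at least as strongly correlated with CLN1 and 18.5% with PCL1. CLN1 and CLB2 had r = 0.737 (permutation p = 0.00142, adjusted p = 0.016), rho = 0.701 (permutation p = 0.00299, adjusted p = 0.0336) and r = 0.617 without the 2 farthest, with 0.458 in K467N, 0.919 in K467R and 0.743 in WT. At least as strong a correlation was found for 25.8% of all genes with CLN1 and for 30.1% with CLB2. When K467R 1 and K467N 2 were left out, CLN1 with CLB2 (r = 0.687, adjusted permutation p = 0.114) and CLN1 with PCL1 (r = -0.661, adjusted permutation p = 0.207) did not pass. CLB6 with CLB2 (r = 0.796) and PCL1 with CLB2 (r = -0.788) did, at adjusted permutation p-values of 0.0148 and 0.0193, though by rho the second did not (adjusted p = 0.0855).

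None of the paralog pairs passed this test. CLB1 and CLB2 had r = 0.565 (permutation p = 0.0243, adjusted p = 0.122), rho = 0.523 (permutation p = 0.0394, adjusted p = 0.187) and r = 0.404 without the 2 farthest libraries. CLN1 and CLN2 had r = 0.469 (permutation p = 0.0698, adjusted p = 0.174), rho = 0.519 (permutation p = 0.0394, adjusted p = 0.187) and r = 0.712 without the 2 farthest. PCL1 and PCL2, both with SCB-like motifs, had r = 0.0613 (permutation p = 0.821, adjusted p = 0.839), rho = 0.112 (permutation p = 0.672, adjusted p = 0.864) and r = 0.180 without the 2 farthest. The remaining paralog pairs, CLB5 with CLB6 and CLB3 with CLB4, had r = 0.241 and -0.403 (permutation p = 0.407 and 0.165, adjusted p = 0.590 and 0.285), rho = 0.162 and -0.228 (permutation p = 0.564 and 0.407, adjusted p = 0.770 and 0.611), and r = -0.0277 and 0.0155 without the 2 farthest.

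**Figure D4:**
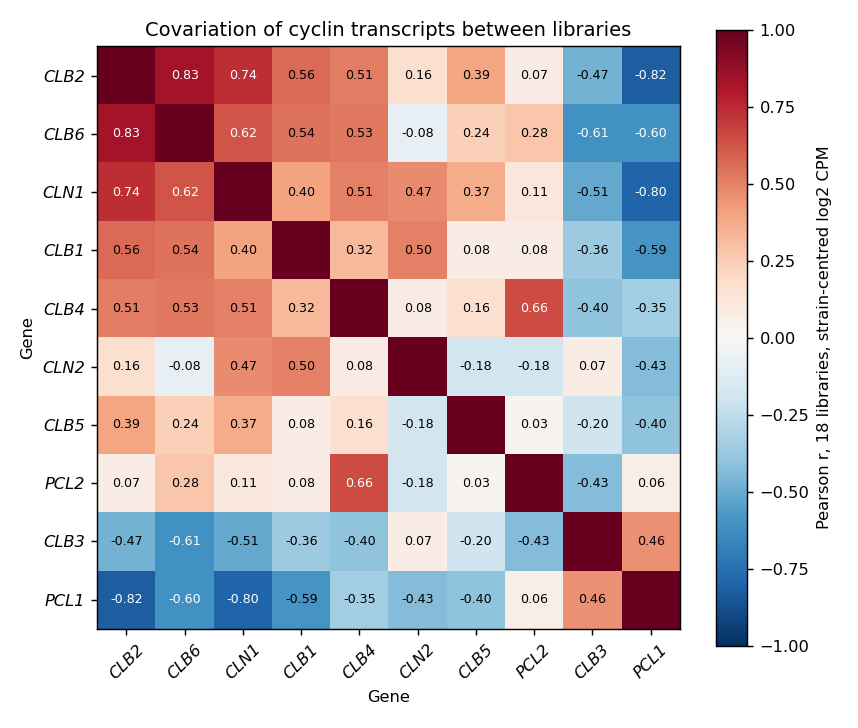
Pearson's r between each pair of cyclin genes over 18 libraries, from log2 CPM centred within strains (colour scale from -1 to 1, values in the cells). CLB2, CLB6, CLN1, CLB1 and CLB4 form a block of positive values. PCL1 has negative values with each of them, and with CLN2 and CLB5.

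A difference between short and long genes ran through the same libraries. In each library the median deviation of short genes (up to 750 coding bases) minus that of long genes (from 1917 bases) lay between -0.40 in K467N 2 and 0.29 in K467R 1 on the log2 scale, from -0.40 to 0.14 in K467N, -0.13 to 0.29 in K467R and -0.27 to 0.17 in WT. Across libraries centred within strains, PCL1, with 840 coding bases the shortest member, was higher where this difference was higher (r = 0.849, permutation p = 4e-05, rho = 0.905, permutation p = 2e-05). CLN1, with 1641 bases the longest, ran against it (r = -0.838, permutation p = 4e-05, rho = -0.847, permutation p = 7e-05). CLB2 ran against it as well (1476 bases, r = -0.788, permutation p = 0.00041, rho = -0.825, permutation p = 0.00016), and so did CLB6 (1143 bases, r = -0.644, permutation p = 0.0048, rho = -0.761, permutation p = 0.00088). Adjusted over the 10 members, the permutation p-values of r were 0.0002, 0.0002, 0.00137 and 0.012 for PCL1, CLN1, CLB2 and CLB6, and the other 6 members did not pass. Without the 2 libraries farthest from the median difference r was 0.799, -0.760, -0.785 and -0.646 in the same order. Over the 18 libraries, not centred, this difference had r = -0.918 with the first principal component. The correlations of members with it are therefore not separate from those with that axis. The share of all genes correlated as strongly with this difference was not computed. Coding length alone did not order the members. PCL2, nearly as short as PCL1 at 927 bases, had r = 0.113 (permutation p = 0.671). CLN2, nearly as long as CLN1 at 1638 bases, had r = -0.503 (permutation p = 0.0476, adjusted p = 0.0847).

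When the trend with coding length was taken out of each library, a step chosen after seeing the data, CLB6 with CLB2 kept r = 0.851 (adjusted p = 0.0027) and PCL1 with CLB2 had r = -0.725 (adjusted p = 0.0243, by rho 0.119), while CLN1 with PCL1 (r = -0.586) and CLN1 with CLB2 (r = 0.563) did not pass (adjusted p = 0.170 for both). PCL2 with CLB4 had r = 0.766 and passed in that setting (adjusted p = 0.0243, by rho 0.119), and without that step it did not (r = 0.655, adjusted p = 0.0528). In that setting the log2 fold change of K467R against WT was 0.17 for PCL1 and -0.11 for CLB2. For K467N against K467R it was -0.12 for PCL1, 0.14 for CLB2, 0.10 for CLN1 and 0.0097 for CLN2. Without that step these were -0.16, 0.17, 0.14 and 0.049.

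**Figure D5:**
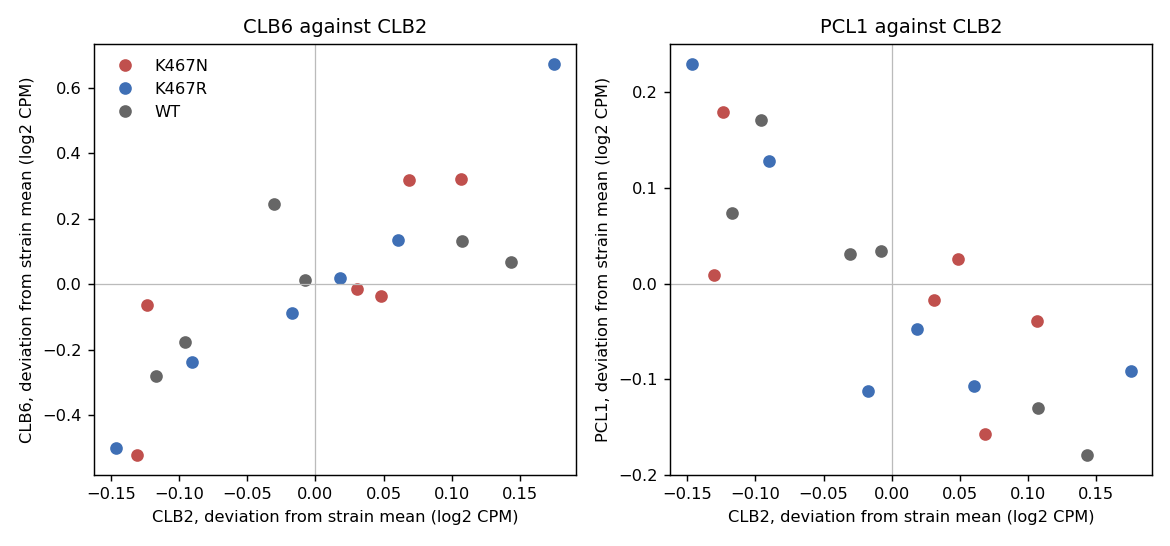
CLB6 (left) and PCL1 (right) against CLB2 in 18 libraries, each as the deviation of log2 CPM from the mean of its strain. CLB6 follows CLB2 upward (r = 0.835), and PCL1 runs downward against it (r = -0.821).

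Among the same 5153 genes, the middle 95% of r with PCL2 ran only from -0.428 to 0.447, and with CLB5 from -0.503 to 0.498, over the 18 centred libraries. The 3 genes most like CLB2 were AMN1, which encodes a factor of daughter cells that antagonises mitotic exit (r = 0.952), PET309 (0.946) and NOP9 (0.940). The 3 most like PCL1 were VTC1 (0.950), the ribosomal protein gene RPS9A (0.939) and YGL108C (0.931). Those most like CLB6 were VTC5 (0.918), TIP20 (0.912) and SLK19 (0.910), and those most like CLN1 were VPS34 (0.926), SEC6 (0.921) and MRN1 (0.910). For CLN2 the likest was RTG2 (0.776), for CLB5 RIO2 (0.789), for CLB3 ELP4 (0.835), for CLB4 TAH18 (0.808), for CLB1 MRX16 (0.828) and for PCL2 YPL071C (0.727).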

How the data were processed

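The deposited files hold raw counts per gene, 1 file per library; the tools, per the submitters' processing notes, were HTSeq 0.6.1p1, STAR 2.5.3a and bcl2fastq 2.20.0.422. Reads with no gene assigned stayed out of all library sizes: 18.3 to 19.6% had several alignments, 4.70 to 5.64% lay outside genes and 0.305 to 0.349% were ambiguous. None of 153 library pairs was a duplicate (chi-square per degree of freedom 2.40 to 83.4). Intervals cover counting and library spread, and reads carry no molecular identifiers.

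The tests ran under edgeR 4.0.16 (R 4.3.3): filterByExpr left 5660 features, TMM scaled the libraries, and 1 robust quasi-likelihood fit of 18 libraries had strain as its only term. Names and coding lengths came from RefSeq R64 by identifier (5956 matched). Covariation used log2 CPM with a prior count of 2 and 100000 permutations within strains; the smallest p these can give is 1e-05. The steps were tested on simulated data. The members and lists were chosen with earlier results of these data known. Named genes were all members, the smallest p of each list per comparison (examples are printed) and the 3 genes most like each member. Alternatives used DESeq2 1.42.0, limma 3.58.1 and sva 3.50.0; replicate numbers follow accession order and pair nothing.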

Additional observations from a re-analysis of the deposited data

How the results depend on the processing

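No cyclin gene passed in any comparison under any of the 27 alternatives run for it: DESeq2 size factors, testing every gene with a count, testing genes at 10 CPM or more in 6 libraries, the 12 libraries compared, 2 surrogate variables, DESeq2, limma-voom, a fit without K467R 1 and K467N 2, a trend in coding length removed (added after seeing the data) and each of 18 libraries left out. The lowest adjusted p of a member was 0.218. Over all genes, 8 were called in K467R against WT with surrogate variables, against 4 without, and 2 in K467N against WT at 10 CPM, against 4. Small fold changes moved readily: of the 30 log2 fold changes of members, 21 moved by over 1.5 times when some library was left out, and 25 under some other alternative; none was called. As no member was called in any setting, sign changes could fall only on uncalled values. The sign differed from the main fit in 33 log2 fold changes over the alternatives and stayed the same in 777. For CLB3, K467N against WT became 0.00286 with every gene tested, 0.00874 with surrogate variables, 0.000419 in DESeq2 and 0.0134 without K467R 1 and K467N 2. K467R against WT became -0.00336 and -0.00621, and K467N against K467R 0.0121 and 0.0196, with surrogate variables and without those libraries. For CLB6, K467N against K467R became -0.229 and -0.131 in the same settings, and CLB2 in K467N against WT -0.00123 with surrogate variables.

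With 1 library left out, CLB3 ranged from -0.0137 to 0.0161 in K467N against WT, -0.00625 to 0.0390 in K467R against WT and -0.0400 to 0.00523 in K467N against K467R. CLB6 ranged from -0.0896 to 0.174 in K467R against WT and -0.0659 to 0.198 in K467N against K467R. CLB4 in K467R against WT ranged from -0.0124 to 0.0542, CLB5 in K467N against WT from -0.0109 to 0.0248, PCL1 in K467N against WT from -0.00309 to 0.0697 and PCL2 in K467N against K467R from -0.0203 to 0.0554. Of the 4 covarying pairs, 2 passed without K467R 1 and K467N 2. All 210 levels, of each member and strain with DESeq2 size factors or 1 library left out, moved by less than 1 SD. Leaving out 1 of 6 libraries cannot move a mean by 1 SD, so only the size factors put this to a check. CLB6, with 106 to 266 counts, had the fewest counts of the members, and its biological coefficient of variation of 18.2% was the highest of them.
The labels link no library of a strain with one of another, so no fit blocked on a shared number was run.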
